A study of Mus musculus with 6 samples.

Results

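The 9 mast cell genes described here were read in 6 RNA sequencing libraries, 3 labelled KO and 3 labelled WT, made after mouse microglia and peritoneal macrophages had been cultured together. The 9 genes were chosen by symbol, as the main granule proteases, surface receptors, histamine-synthesizing enzyme and a transcription factor of mast cells, and all 9 of 9 were present among the 21399 gene symbols of each library. In both groups microglia went through oxygen and glucose deprivation (OGD), a culture model of ischaemia, and then reoxygenation, when macrophages from the peritoneum of CD45.1 mice were added, CD45.1 and CD45.2 being variants of a leukocyte surface protein. The KO microglia came from CD45.2 KO mice and the WT microglia from CD45.2 WT mice, and CD45.1+ cells were sorted for sequencing. The series title names PPARα, but no label says which gene was deleted, and age and length of culture are not given. The design text calls the sorted cells microglia although the CD45.1 mark belongs to the added macrophages, so the sequenced population is not settled by the labels. No label says whether libraries of 1 group are separate cultures or animals. Each p-value therefore reflects library-to-library spread alone, and that spread may be technical.

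Mast cells are long-lived tissue cells that mature locally under the growth factor receptor KIT and store histamine, proteoglycan and large amounts of proteases in granules. Binding of antigen to IgE on their high-affinity receptor FcεRI releases these granules and starts the synthesis of lipid mediators. The peritoneal cavity of rodents is a classical source of connective tissue mast cells, which lie there among macrophages and B cells. In a bulk library, fewer cells of a type and less RNA per cell cannot be told apart.

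The libraries held between 34542822 and 38092819 reads recovered from the deposited FPKM values (fragments per length of transcript and depth of library), with 36063817 in WT replicate 1. Ppara, the gene of PPARα, had 13, 23 and 10 reads in the KO libraries and 11, 1 and 2 reads in the WT libraries, so it was scarce in all and not lower in KO. The deleted stretch is not given, and this gene-level value does not check the labels. The microglial surface gene Tmem119 stood at 2.24, 2.14 and 2.43 FPKM in KO and 0.461, 1.04 and 0.203 FPKM in WT libraries. It was not typical of its list. Of 11 microglia genes looked up, 10 were listed, and 2, Tmem119 and Olfml3, were higher in every KO library. None was lower in every KO library, and the groups did not overlap for 24.9% of genes averaging 1 FPKM or more. P2ry12 stood at 0.457, 0.587 and 1.09 FPKM in KO and 0.801, 0.585 and 0.268 FPKM in WT libraries. Sall1 did not exceed 0.152 FPKM. Cd79a, a B cell receptor gene, reached at least 1676 FPKM in each library, and Saa3, an acute-phase gene of peritoneal macrophages, at least 1120 FPKM.

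The granule proteases made up most of the mast cell signal, and 1 library stood apart in all of them. Cpa3, the mast cell carboxypeptidase, stood at 39.5, 37.1 and 9.02 FPKM in KO replicates 1 to 3, against 1.26, 59.97 and 26.6 FPKM in WT replicates 1 to 3. Tpsb2, a tryptase, stood at 166, 164 and 37.3 FPKM in KO and 3.21, 183 and 80.3 FPKM in WT libraries. WT replicate 1 was the lowest library and WT replicate 2 the highest, so the widest difference lay inside the WT group. Mcpt4, a chymase of connective tissue mast cells, stood at 86.8, 109 and 21.5 FPKM in KO and 1.335, 131 and 44.96 FPKM in WT libraries. Cma1, the mouse alpha-chymase, stood at 144, 134 and 31.9 FPKM in KO and 2.25, 162 and 84.45 FPKM in WT libraries. For each of the 4 proteases the second lowest library was KO replicate 3, and the KO and WT values overlapped.

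Summed over the 4 proteases, the KO libraries held 436, 445 and 99.6 FPKM and the WT libraries 8.05, 536 and 236 FPKM. WT replicate 2 was 66.6 times as high as WT replicate 1, and KO replicate 2 was 4.46 times as high as KO replicate 3. In WT replicate 1 the proteases were nevertheless above the counting floor, with 68 Cpa3 reads (exact Poisson 95% interval 52.8 to 86.2) and 48 Mcpt4 reads (35.4 to 63.6), where intervals cover counting error only. Among the 10732 genes that averaged 1 FPKM or more, Mcpt4, Cma1, Tpsb2 and Cpa3 ranked 1, 2, 3 and 4 by the SD of log2(FPKM + 1) over the 6 libraries. Their SDs were 2.19, 2.18, 2.11 and 1.76 (log2), where the median over the genes tested was 0.15.

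**Figure D1:**
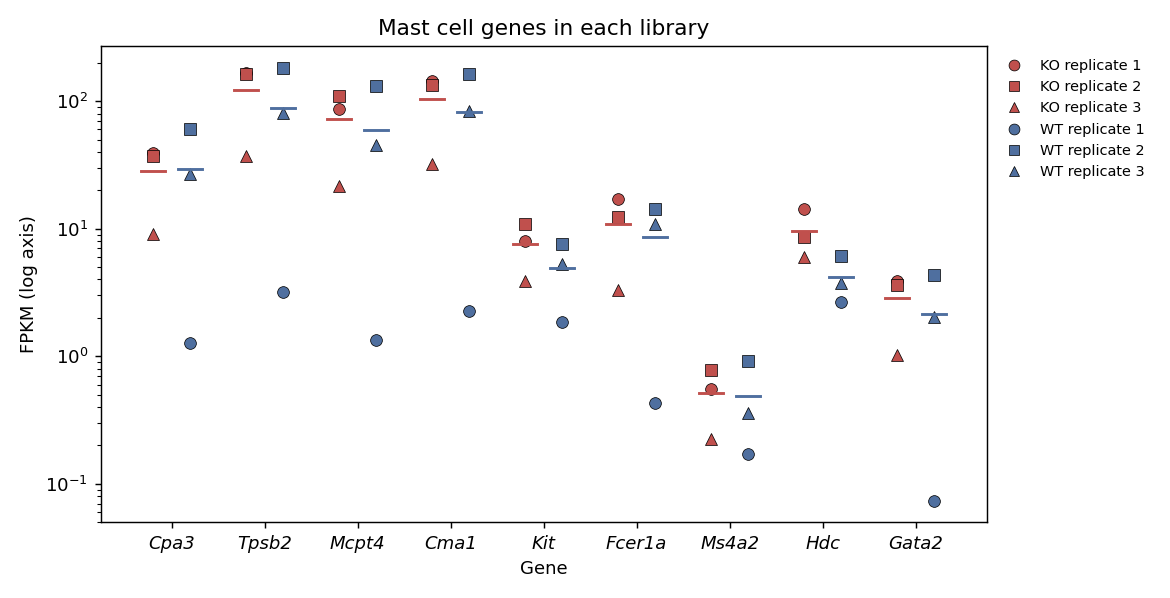
FPKM of the 9 mast cell genes (log axis) in each library, KO left and WT right for each gene, with symbols for replicates and horizontal lines for group means. WT replicate 1 is the lowest library for all 9 genes, from 1.02% of the highest library for Mcpt4 to 19.0% for Hdc.

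The chains of the IgE receptor differed in level and in how low they were in WT replicate 1. Fcer1a, the IgE-binding alpha chain of FcεRI, stood at 17.1, 12.45 and 3.30 FPKM in KO and 0.427, 14.3 and 10.95 FPKM in WT libraries. Ms4a2, the signal-amplifying beta chain, stood at 0.550, 0.775 and 0.224 FPKM in KO and 0.1715, 0.926 and 0.358 FPKM in WT libraries. WT replicate 1 thus held 2.50% of the highest Fcer1a level (16 reads) but 18.5% of the highest Ms4a2 level (18 reads, exact Poisson 95% interval 10.7 to 28.4). Kit, which encodes the receptor for stem cell factor and is also used by other blood cells and their progenitors, stood at 7.98, 10.8 and 3.91 FPKM in KO and 1.865, 7.66 and 5.33 FPKM in WT libraries. Its WT replicate 1 level was 17.2% of the highest, on 351 reads, nearer to the other libraries than the proteases were.

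Hdc, histidine decarboxylase, makes histamine in mast cells and basophils and can also be induced in macrophages and neutrophils. It stood at 14.2, 8.56 and 5.97 FPKM in KO and 2.68, 6.14 and 3.75 FPKM in WT libraries, with KO replicate 1 the highest. It was the 1 member whose second lowest library was not KO replicate 3 but WT replicate 3. Gata2, a transcription factor required for mast cell development, stood at 3.90, 3.59 and 1.03 FPKM in KO and 0.0739, 4.34 and 2.03 FPKM in WT libraries. WT replicate 1 held 9 Gata2 reads (exact Poisson 95% interval 4.12 to 17.1), or 1.70% of the highest library, as low as the proteases and Fcer1a.

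In WT replicate 1, then, 6 members (the 4 proteases, Fcer1a and Gata2) stood at 1.02% to 2.50% of their highest library, and Kit, Ms4a2 and Hdc at 17.2% to 19.0%. Gata2 encodes a factor that binds GATA motifs, so the promoters of those of the 6 in which one was found are shown, as the 250 bases before the RefSeq gene start (GRCm38.p6, the mm10 assembly), 5′ to 3′ on the gene's strand. Capitals mark the GATA motif, searched on both strands as AGATAA with A or T as its first and A or G as its last letter, and, in Fcer1a, also the E-box CATGTG. In Cma1 and Fcer1a the matches lie on the opposite strand, so the capitals show the reverse complement. No matches overlapped.
Cpa3: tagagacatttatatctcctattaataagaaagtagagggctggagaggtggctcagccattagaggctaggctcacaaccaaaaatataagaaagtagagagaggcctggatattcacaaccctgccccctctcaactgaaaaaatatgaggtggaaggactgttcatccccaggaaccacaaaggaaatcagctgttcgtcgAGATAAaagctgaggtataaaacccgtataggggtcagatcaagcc
Mcpt4: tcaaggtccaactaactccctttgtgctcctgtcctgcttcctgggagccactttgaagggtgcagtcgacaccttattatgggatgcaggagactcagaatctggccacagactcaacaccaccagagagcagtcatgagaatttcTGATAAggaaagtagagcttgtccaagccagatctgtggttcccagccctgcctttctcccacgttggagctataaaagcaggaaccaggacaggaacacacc
Cma1: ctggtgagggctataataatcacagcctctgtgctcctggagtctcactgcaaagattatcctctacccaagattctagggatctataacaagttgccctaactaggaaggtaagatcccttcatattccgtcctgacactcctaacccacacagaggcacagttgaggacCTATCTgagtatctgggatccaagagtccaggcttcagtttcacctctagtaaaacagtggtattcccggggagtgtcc
Fcer1a: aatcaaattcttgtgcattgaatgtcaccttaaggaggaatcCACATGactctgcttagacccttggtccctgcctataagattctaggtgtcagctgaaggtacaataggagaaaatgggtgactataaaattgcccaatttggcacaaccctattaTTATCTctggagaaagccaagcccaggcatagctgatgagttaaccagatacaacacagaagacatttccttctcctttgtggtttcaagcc
These windows lie at chr3:20242182-20242431, chr14:56062311-56062560, chr14:55944676-55944925 and chr1:173227230-173227479, all with the gene on the minus strand. The GATA match began 46 bases before the start in Cpa3, 103 in Mcpt4, 79 in Cma1 and 92 in Fcer1a. Promoters were found for 8 of the 9 genes, all but Tpsb2, and 6 of these 8 held a GATA motif in the 250 bases, where 26.5% of 32851 mouse promoters did. Hdc also held 1 match and Ms4a2 held 3, more than any promoter shown, and Kit and Gata2 held none. The E-box was found in 1 of 8, where 12.3% of the promoters held it. A match is a description of letters and not a binding site.

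In the GENCODE M21 annotation of mm10, none of the members except Cpa3 overlaps another gene, and Cpa3 (chromosome 3, 20215620 to 20242181) holds a microRNA gene on its own strand. Mcpt4 (chromosome 14, 56059629 to 56062313) and Cma1 (chromosome 14, 55941451 to 55944675) belong to 1 cluster of granule protease genes with similar sequences. Of the stretches of 50 bases in Mcpt4 transcripts, 5.48% were also found in transcripts of other genes, and of those in Cma1 transcripts 5.38%, so a small part of their reads may not be assigned with certainty. The shares were 2.10% for Ms4a2 and 0.141% for Hdc, and no stretch was shared for Cpa3, Tpsb2, Kit, Fcer1a or Gata2.

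The proportions of 5 members to Cpa3 varied less over the libraries than their levels did, and those of 3 members varied more. Taken over Cpa3 in the same library, Tpsb2 was 4.19, 4.43 and 4.13 in KO libraries and 2.54, 3.06 and 3.02 in WT libraries. This ratio spanned 1.74-fold over the 6 libraries, while the level of Tpsb2 spanned 57.1-fold and that of Cpa3 47.4-fold. Cma1 over Cpa3 spanned 2.06-fold, Gata2 1.96-fold, Fcer1a 1.82-fold and Mcpt4 2.79-fold. Kit over Cpa3 spanned 11.6-fold, Ms4a2 10.1-fold and Hdc 20.7-fold, each with its highest ratio in WT replicate 1. The levels of these 3 genes spanned less, 5.81-fold for Kit, 5.40-fold for Ms4a2 and 5.28-fold for Hdc.

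The ratios also separated KO from WT libraries for 4 of 8 members, a pattern noticed after the values were seen. Tpsb2 over Cpa3 averaged 4.25 ± 0.156 in KO and 2.87 ± 0.289 in WT (SD, n = 3 each). Mcpt4 over Cpa3 averaged 2.51 ± 0.388 in KO and 1.64 ± 0.565 in WT, although its nearest libraries, at 2.20 in KO and 2.18 in WT, hardly differed. Cma1 over Cpa3 averaged 3.60 ± 0.0632 in KO and 2.55 ± 0.709 in WT. Gata2 over Cpa3 averaged 0.103 ± 0.00966 in KO and 0.0690 ± 0.00936 in WT. Its ratio of 0.0585 in WT replicate 1 rests on 9 Gata2 reads, and at the upper Poisson bound of these reads it would be 0.111, inside the KO range, so the gap of this library to KO is within counting error. As measured, every KO library thus held less Cpa3 per unit of these 4 genes than every WT library. The 4 ratios share the Cpa3 value of each library and are not separate findings. Each gave an exact two-sided permutation p of 0.1, unadjusted, the smallest that 3 against 3 allows. The 4 were singled out because their groups did not overlap, which fixes this p in advance, so it adds no support. Of the 10731 other genes tested, these 4 included, 0.0746% had a ratio to Cpa3 that did not overlap between the groups. Cpa3 had both its lowest and its highest level in WT libraries, so the ratio of a gene with a steady level overlaps in any case. This share therefore does not measure how rare the pattern is. Leaving out each library in turn, the KO mean over the WT mean stayed between 1.40 and 1.53 for Tpsb2, 1.29 and 1.83 for Mcpt4, 1.23 and 1.61 for Cma1, and 1.39 and 1.58 for Gata2. Where groups do not overlap, the KO mean stays above the WT mean whichever library is left out, so only the size is informative.

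**Figure D2:**
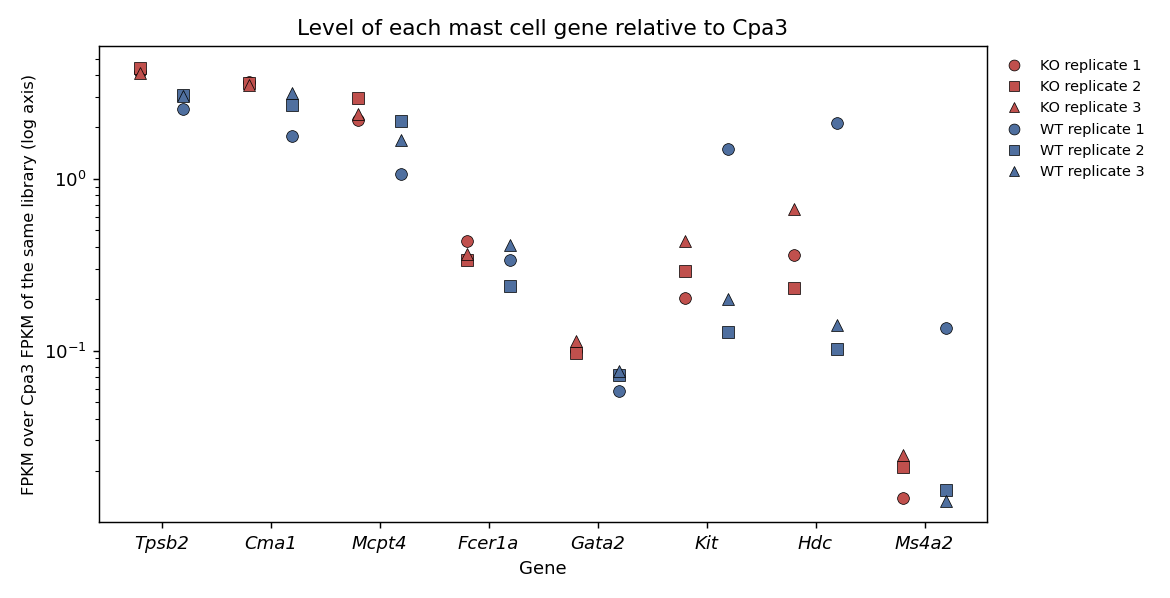
FPKM of 8 mast cell genes divided by Cpa3 FPKM of the same library (log axis), KO left and WT right for each gene, with symbols for replicates. Tpsb2, Cma1, Mcpt4 and Gata2 have KO ratios above all WT ratios, and Kit, Hdc and Ms4a2 have their highest ratio in WT replicate 1, at 1.48, 2.12 and 0.136.

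The comparison of KO with WT asked whether mast cell genes differed with the genotype of the cultured microglia. None of the 8 members tested passed after adjustment over all genes tested, and the spread between libraries was wide. The limma test used log2(FPKM + 1), a scale on which changes of low genes come out too small, and genes averaging 1 FPKM or more, which leaves out Ms4a2. With Benjamini-Hochberg adjustment over all 10732 genes tested, 0 of 8 members passed 0.05, where 0.028% of the genes tested did. At an unadjusted p under 0.05 the count was 1 of 8 (Hdc), where 17.1% of the genes tested passed. Voom, run on recovered reads, also called 0 members. The KO and WT values did not overlap for 0 of 9 members, where they did not overlap for 24.9% of the genes tested.

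All 8 log2 fold changes were positive, with a median of 0.84 where the median over the genes tested was -0.06, but 6 of them turned negative without WT replicate 1. Tpsb2 averaged 122 ± 73.7 FPKM in KO and 88.9 ± 90.3 FPKM in WT (SD, n = 3 each), with a log2 fold change of 1.36 (SE 1.32, 95% interval -1.74 to 4.45, adjusted p = 0.63 by limma). Without WT replicate 1 it was -0.27. Mcpt4 averaged 72.5 ± 45.6 FPKM in KO and 59.1 ± 65.9 FPKM in WT, with a log2 fold change of 1.31 (SE 1.38) that was -0.37 without WT replicate 1. Cma1 averaged 103 ± 62.2 FPKM in KO and 82.96 ± 79.98 FPKM in WT, with a log2 fold change of 1.28 (SE 1.38), and -0.45 without WT replicate 1.

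Cpa3 had nearly equal means, 28.5 ± 16.9 FPKM in KO and 29.3 ± 29.4 FPKM in WT, beside a log2 fold change of 0.67 (SE 1.16, 95% interval -2.03 to 3.38, adjusted p = 0.79 by limma). Its ratio of mean FPKM, KO over WT, was 0.975, so the sign of the difference depended on whether values were averaged before or after taking logs. Without WT replicate 1 the log2 fold change was -0.72. Fcer1a averaged 10.95 ± 7.01 FPKM in KO and 8.56 ± 7.23 FPKM in WT, with a log2 fold change of 0.67 (SE 0.93) and -0.41 without WT replicate 1. Gata2 averaged 2.84 ± 1.57 FPKM in KO and 2.15 ± 2.13 FPKM in WT, with a log2 fold change of 0.47 (SE 0.59) and -0.17 without WT replicate 1. For this low gene the value also depended on the scale, at 1.11 with a pseudocount of 0.1 and 1.49 with voom on the recovered reads. Ms4a2 averaged 0.517 ± 0.277 FPKM in KO and 0.485 ± 0.393 FPKM in WT, and in a limma fit without the filter its log2 fold change was 0.05 (adjusted p = 0.94). The intervals of the proteases reach changes of several log2 units in either direction, so a failed test does not show equal levels.

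Hdc and Kit kept a positive sign in each leave-one-out fit. Hdc averaged 9.56 ± 4.18 FPKM in KO and 4.19 ± 1.77 FPKM in WT, with a log2 fold change of 1.01 (SE 0.32, 95% interval 0.25 to 1.76, unadjusted p = 0.016, adjusted p = 0.20 by limma). Its adjusted p ran from 0.067 to 0.51 over all settings, and without WT replicate 1 the log2 fold change was 0.79. Kit averaged 7.58 ± 3.48 FPKM in KO and 4.95 ± 2.91 FPKM in WT, with a log2 fold change of 0.58 (SE 0.45, adjusted p = 0.55 by limma), and 0.12 without WT replicate 1. Exact two-sided permutation tests on FPKM gave unadjusted p-values from 0.2, for Hdc, to 1.0, for Cpa3, over the 9 members. The summed level of 22 peritoneal macrophage genes was higher in each KO library than in each WT library, while the Hdc and Kit values overlapped. The sum was 24780, 14570 and 11220 FPKM in KO and 4388, 9118 and 2827 FPKM in WT libraries. Of the tested log2 fold changes of these genes 20 of 21 were positive, where 35.4% were positive over all genes tested. The part of these macrophage genes in the Hdc difference was not tested.

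**Figure D3:**
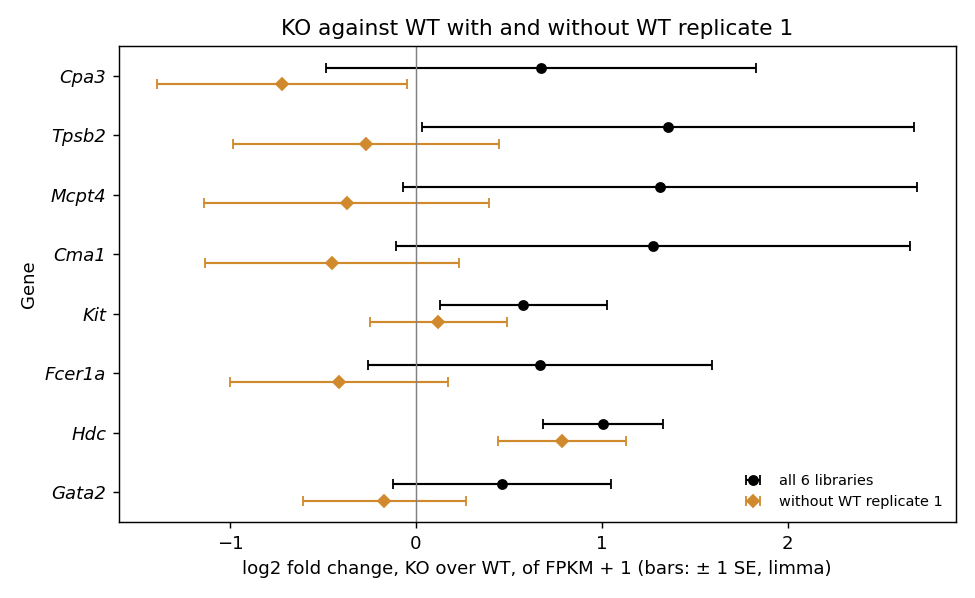
Log2 fold change of KO over WT on log2(FPKM + 1) for the 8 members tested, with bars of 1 SE from limma, for all 6 libraries (black circles) and without WT replicate 1 (orange diamonds). With all 6 libraries every value is positive, and without WT replicate 1 the values of Cpa3, Tpsb2, Mcpt4, Cma1, Fcer1a and Gata2 are negative.

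Other genes of mast cells were described from lists for granules, amine handling and lineage. Among 1276 tested genes outside the 9 with an SD of at least 0.3 (log2), the 8 with the pattern most like Cpa3 over the 6 libraries were Tph1, Tpsg1, Mrgprb1, Il1rl1, Prss34, Cyp11a1, Uqcc5 and Creb3l1, with Pearson r from 0.99 to 0.93. These r values describe likeness over 6 libraries that share WT replicate 1 as the lowest. Tph1, which encodes tryptophan hydroxylase, the first enzyme of serotonin synthesis, stood at 10.4, 12.5 and 2.99 FPKM in KO and 0.239, 11.3 and 6.85 FPKM in WT libraries. Mrgprb1, of a receptor family known from mast cells, stood at 4.34, 5.13 and 1.16 FPKM in KO and 0.0921, 4.71 and 3.69 FPKM in WT libraries. Il1rl1, the receptor for interleukin-33, stood at 5.155, 5.86 and 1.61 FPKM in KO and 0.218, 4.48 and 3.42 FPKM in WT libraries. Each of these 3 genes was, like the proteases, lowest in WT replicate 1 and next lowest in KO replicate 3. Their highest library was KO replicate 2, while that of the proteases was WT replicate 2.

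Of 9 other granule genes, 6 were listed, all 6 were lowest in WT replicate 1, and 3 were tested, with 0 called higher or lower. Tpsg1, a membrane-bound tryptase, held 2.41% of its highest level in WT replicate 1. Srgn, serglycin, the proteoglycan that binds granule proteases and that other leukocytes also make, stood at 143, 118 and 125 FPKM in KO and 98.99, 126 and 105 FPKM in WT libraries and so hardly followed them. Ndst2, an enzyme of heparin synthesis, spanned only 1.37-fold over the libraries. Ctsg and Mcpt2, further granule proteases, did not exceed 0.432 and 0.570 FPKM in any library, and neither had a read in WT replicate 1. Each had 1 read in KO replicate 3, and Mcpt2 also 1 in WT replicate 3, so these counts hardly set WT replicate 1 apart.

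Of 9 amine handling genes, 7 were listed and 3 tested, with 0 called. Slc6a4, the serotonin transporter, held 172, 171 and 73 reads in KO and 1, 201 and 47 reads in WT libraries. Slc18a2, the vesicular monoamine transporter that loads histamine and serotonin into granules, held 227, 200 and 72 reads in KO and 9, 247 and 87 reads in WT libraries. Both thus had their lowest library in WT replicate 1. Hrh2, a histamine receptor, spanned 1.45-fold, with a log2 fold change of -0.23 (adjusted p = 0.28 by limma).

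Of 20 other lineage genes, 19 were listed and 12 tested, with 0 called. The lineage factors Gata1 and Tal1, below the filter, held 9.40% and 7.67% of their highest level in WT replicate 1. These shares rest on 6 and 18 reads there and carry a wide counting error. Mitf, a transcription factor of mast cells that macrophages and osteoclasts also use, stood at 2.43, 1.81 and 0.975 FPKM in KO and 0.661, 0.696 and 0.550 FPKM in WT libraries, with non-overlapping groups but an adjusted p of 0.15 by limma. Csf2rb, the common beta chain of the receptors for interleukin-3, interleukin-5 and GM-CSF, was also higher in each KO library, at 103, 97.3 and 95.5 FPKM, than in each WT library, at 70.5, 66.5 and 60.7 FPKM, without passing the test (adjusted p = 0.077 by limma). Csf2rb2, its close paralogue in the mouse, averaged 45.05 ± 5.72 FPKM in KO and 19.05 ± 4.18 FPKM in WT (log2 fold change 1.21, adjusted p = 0.074 by limma). Reads of this pair may be split with some uncertainty. Spi1, which encodes the myeloid and B cell factor PU.1, spanned 2.04-fold. Of the 19 listed lineage genes, these 3 (Mitf, Csf2rb and Csf2rb2) were higher in every KO library than in every WT library and 1 was lower, where 24.9% of the genes tested did not overlap. The lower 1 was Itgb7, an integrin chain that lymphocytes also use, at 67.4, 68.97 and 76.1 FPKM in KO and 79.8, 88.5 and 79.6 FPKM in WT libraries (adjusted p = 0.27 by limma). Summed macrophage markers were higher and summed B cell markers lower in each KO library, and their part in these differences was not tested. Neither Mitf nor Csf2rb had its highest level in WT replicate 2, unlike most of the members.

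Genes that carry the signal from FcεRI and KIT did not follow the receptors. Of 21 listed, 20 were tested, 4 had a positive and 16 a negative log2 fold change, the median was -0.13, and 0 were called. Lyn, a kinase that FcεRI shares with the B cell receptor, spanned 1.10-fold over the libraries. Syk, another shared kinase, stood at 93.8, 103 and 109.5 FPKM in KO and 113, 117.5 and 111 FPKM in WT libraries, lower in each KO library (adjusted p = 0.40 by limma). Ptpn6, a phosphatase, and Grb2, an adaptor, the highest of the list, spanned 1.17-fold and 1.11-fold. Fcer1g, the gamma chain of FcεRI that macrophage Fc receptors also use, stood at 256, 161 and 118 FPKM in KO and 47.2, 99.85 and 44.7 FPKM in WT libraries. Gab2, an adaptor, stood at 7.235, 5.72 and 5.22 FPKM in KO and 2.44, 2.97 and 2.00 FPKM in WT libraries, a log2 fold change of 1.02 with an SE of 0.15 (limma, adjusted p = 0.076). Lcp2, the adaptor SLP-76, averaged 23.0 ± 4.19 FPKM in KO and 11.4 ± 2.62 FPKM in WT (adjusted p = 0.11 by limma). Of the 21 genes, 3 (Fcer1g, Gab2 and Lcp2) were higher in every KO library than in every WT library, and 4 (Syk, Lat, Vav1 and Pik3cd) were lower, where 24.9% of the genes tested did not overlap. The last 4 were named after their values were seen.

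Most genes of lipid mediator synthesis and response also separated by group rather than with the proteases. Of 10 listed, 7 were tested, 6 of these had a positive log2 fold change, the median was 1.37, and 0 were called. For 7 of the 10 listed genes every KO library lay above every WT library, where the groups did not overlap in either direction for 24.9% of the genes tested. For Hpgds, Cysltr2 and Ptgdr2 the groups overlapped. Hpgds, a prostaglandin synthase, averaged 3.475 ± 0.359 FPKM in KO and 3.905 ± 0.793 FPKM in WT, with a log2 fold change of -0.12. Ptgs1, a prostaglandin synthase, stood at 30.03, 24.5 and 21.9 FPKM in KO and 7.89, 12.3 and 4.61 FPKM in WT libraries, a log2 fold change of 1.59 with an SE of 0.29 (limma, adjusted p = 0.11). Cysltr1, a leukotriene receptor, averaged 3.225 ± 0.267 FPKM in KO and 1.14 ± 0.500 FPKM in WT. Alox5, which starts leukotriene synthesis, averaged 15.5 ± 3.74 FPKM in KO and 5.145 ± 3.51 FPKM in WT. Alox5ap, its activating protein, stood at 145.5, 112 and 96.5 FPKM in KO and 34.1, 83.7 and 30.9 FPKM in WT libraries. These genes are widely expressed in macrophages, whose summed markers were higher in each KO library, and the macrophages' part in these differences was not tested.

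Markers of related and neighbouring cells were set beside the members. Basophils share FcεRI, Hdc and Cpa3 with mast cells and are told from them by Mcpt8, which held 1, 3 and 0 reads in KO and 0, 0 and 1 reads in WT libraries. Prss34, a protease best known from mouse basophils, had an r of 0.95 with Cpa3 and stood at 3.235, 2.37 and 0.575 FPKM in KO and 0.0216, 2.61 and 1.29 FPKM in WT libraries. Cyp11a1, a steroid-synthesizing enzyme on the same list, spanned 2.80-fold with WT replicate 1 lowest. Of the 4 basophil genes, 2 were tested and 0 called. Prg2, an eosinophil granule gene, did not exceed 0.0288 FPKM in any library, and Elane, a neutrophil granule gene, did not exceed 0.0306 FPKM. The eosinophil list, led by the interleukin-5 receptor gene Il5ra, summed to 16.1, 20.5 and 20.4 FPKM in KO and 22.65, 19.6 and 21.8 FPKM in WT libraries. Nearly all of this was Il5ra, at 15.0, 19.97 and 19.7 FPKM in KO and 21.7, 18.8 and 21.3 FPKM in WT libraries. Siglecf, Ccr3 and Ear2 of the same list did not exceed 0.385, 0.453 and 0.692 FPKM. The neutrophil list, led by the calprotectin gene S100a8, summed to 21.6, 15.5 and 14.1 FPKM in KO and 4.94, 13.7 and 3.02 FPKM in WT libraries. Most of this sum came from S100a8 and Mmp8. No other gene of the list exceeded 0.827 FPKM in any library, and Ly6g, Mpo, Ngp and Ltf were not listed. The tested members of the eosinophil and neutrophil lists, 1 and 2, were not called.

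WT replicate 1 was not the lowest library in lymphocyte or macrophage markers. The 10 B cell markers summed to 5243, 5270 and 5689 FPKM in KO and 5932, 6738 and 6431 FPKM in WT libraries. The 12 T and NK cell markers summed to 355, 365 and 398 FPKM in KO and 391, 485 and 458 FPKM in WT libraries. All 10 tested genes of each list had a negative log2 fold change, where 35.4% of the genes tested had a positive one. In each list 6 genes were lower in every KO library than in every WT library, and 0 were called. Over all genes tested, the groups did not overlap in either direction for 24.9%. The summed B cell markers were also lower in each KO library than in each WT library, opposite to the macrophage markers, while the T and NK cell sums overlapped. WT replicate 1 lay inside the range of the others in both sums, and its macrophage sum of 4388 FPKM was above that of WT replicate 3. The 7 listed mesothelial and fibroblast genes summed to 2.58, 9.97 and 28.5 FPKM in KO and 1.89, 16.1 and 0.803 FPKM in WT libraries, an order unlike that of the mast cell genes. None of the marker lists had more than 1 called gene, and that 1 was among the peritoneal macrophage markers.

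**Figure D4:**
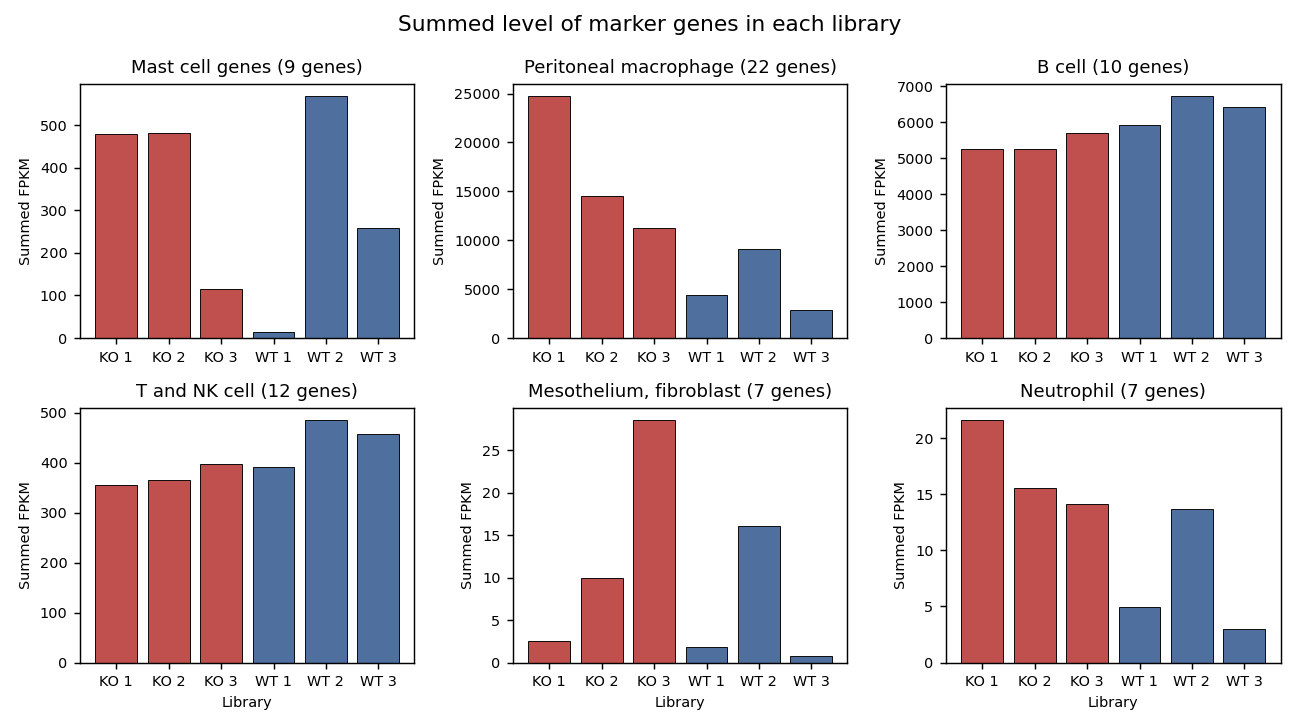
Summed FPKM of marker genes in each library, KO (red) left and WT (blue) right, with a linear axis from 0 in each panel. The mast cell genes sum to 13.3 FPKM in WT replicate 1 and to between 114 and 570 FPKM in the other libraries, while the B cell sums lie between 5243 and 6738 FPKM.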

How the data were processed

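RNA sequencing covered 3 KO and 3 WT libraries of total RNA, prepared with the VAHTS Universal V6 kit per the labels' protocols. The authors deposited FPKM values, 1 table of 21399 gene symbols per library. The submitters' processing notes name mm10. Not given in the sources used here were the aligner, counter, strand setting and annotation. FPKM values are not counts, so genes averaging 1 FPKM or more were tested on log2(FPKM + 1) with limma 3.58.1 in R 4.3.3 (two-sided, mean-variance trend, Benjamini-Hochberg at 0.05). Because FPKM moved in whole steps, reads were recovered within 0.002 reads of a whole number for 19331 of 19331 genes seen in at least 2 libraries, a factor common to all 6 being invisible. Single values were compared by exact permutation, whose smallest p with 3 libraries a group is 0.1. Scripts were tested on simulated data.

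The 9 members and the lists were chosen with earlier results of these data known. Named genes were the members, per list up to 3 genes with the smallest p and the 2 with the highest mean (1 for other cell types), and the 8 most like Cpa3 by Pearson r over 6 libraries. Other list genes, the ratios to Cpa3 and the motifs were chosen after values were seen. Alternatives changed pseudocount, filter, scaling, test, replicate block and the libraries used. Python 3.11.15, pandas 2.3.3, numpy 2.4.6, scipy 1.17.1 and matplotlib 3.10.9 were used. Promoters came from RefSeq (GRCm38.p6) and positions from GENCODE M21.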

Additional observations from a re-analysis of the deposited data

How the results depend on the processing

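None of the 15 alternative settings called a member (0 under each), and the sign of the fold change depended on 1 library. Leaving out each library in turn, the log2 fold change ran from -0.27 to 2.46 for Tpsb2, from -0.37 to 2.54 for Mcpt4, from -0.45 to 2.38 for Cma1, from -0.72 to 1.66 for Cpa3, from -0.41 to 1.30 for Fcer1a and from -0.17 to 0.99 for Gata2. The lowest value in each case was without WT replicate 1 and the highest without WT replicate 2. No other setting reversed a member, Gata2 ran from 0.16 with a pseudocount of 5 to 1.49 with voom, and Hdc ran from 0.64 to 1.27 over all settings. Kit over Cpa3 had a KO mean 0.515 times the WT mean, and 1.89 times without WT replicate 1, and Hdc over Cpa3 0.529 times and 3.43 times. The count over all genes tested was 3, and it was 6 with a pseudocount of 5, 0 with no filter, 6 with totals rescaled without mitochondrial and ribosomal protein genes, and 5 and 10 with voom on the genes of the filter and on genes with at least 10 reads. Leaving out each library in turn it ran from 0, without WT replicate 1 or WT replicate 3, to 538 without WT replicate 2, and was 1 without KO replicate 1 or KO replicate 2. The cause of these changes was not tested. With the replicate number as a block 11 genes and 0 members were called, but the numbers share no stated batch, and the deviations of same-numbered libraries correlated at -0.21, -0.38 and 0.27, with 2 of 6 libraries best matched by their own number. At 9 to 16 reads, the Gata2 and Fcer1a levels of WT replicate 1 carry a wide counting error.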

Other observations

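Il4 and Il13, cytokine genes that activated mast cells can express and that T cells and basophils also use, were read too rarely for a test. Il4 held 2, 3 and 0 reads in KO and 0, 13 and 5 reads in WT libraries. Il13 held 1, 1 and 5 reads in KO and 0, 23 and 1 reads in WT libraries. WT replicate 2, the library with the highest protease sum, was the highest for both, and WT replicate 1 had no read of either. Kitl, which encodes the KIT ligand, held 28, 19 and 11 reads in KO and 20, 19 and 2 reads in WT libraries, with no such order. Hnmt, a histamine-degrading enzyme, held 82, 42 and 35 reads in KO and 5, 33 and 12 reads in WT libraries. Each KO library was above each WT library, but the nearest, at 35 and 33 reads, hardly differed. At a mean of 0.496 FPKM it lay below the filter and was not tested. The groups did not overlap for 24.9% of the genes tested.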
